A study of Mus musculus with 12 samples.

Results

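Striatal projection neurons, also called medium spiny neurons (MSNs), are the GABAergic output cells that make up most of the striatum, and their identity is set and kept by a small set of transcription factors. Of those factors, 9 were followed here by gene symbol in every library: Bcl11b, Foxp1, Foxp2, Rarb, Rxrg, Meis2, Ebf1, Six3 and Zfp503. All 9 were found among the 55487 gene IDs of the deposited count files, and all 9 passed the filter on low counts that left 21309 genes for testing. Their raw counts ranged per library between 672 for Ebf1 and 27355 for Meis2, so no member was near the limit of detection.

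Poly(A) RNA of striatal tissue was sequenced from 12 mice, 3 in each of 4 groups. The cGAS-KO; HD mice are labelled as double mutants that combine the cGAS knockout with the Huntington's disease allele. The HD mice were heterozygous for zQ175 neo-deleted, a knock-in allele that places an expanded CAG repeat in the mouse Htt gene under its own promoter, so it is not limited to MSNs. The cGAS-KO mice are labelled as knockouts of cGAS, a cytosolic DNA sensor that signals through STING, and the WT mice were C57BL/6J controls. The labels state no age, sex or litter, nor how the cGAS knockout allele was made. Because whole tissue was measured, fewer MSNs and less RNA per MSN cannot be told apart.

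MSN precursors arise in the lateral ganglionic eminence of the embryo and divide into direct-pathway neurons, which carry the dopamine receptor Drd1, and indirect-pathway neurons, which carry Drd2 and the adenosine receptor Adora2a. Bcl11b, Foxp1 and Meis2 are found across both classes, Ebf1 is required for the direct pathway, and Six3 acts in the formation of the indirect pathway. Rarb and Rxrg encode retinoid receptors, which bind DNA as pairs of a retinoic acid receptor and a retinoid X receptor; the retinoic acid receptor of the pair is activated by retinoic acid, a vitamin A product. Many of these genes stay on in the adult striatum, and for some of them loss of the factor is known to weaken expression of MSN genes.

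Totals lay between 59195327 and 72765623 counts per library, with 26827 to 28348 genes detected. Levels are given as CPM, the share of a library's counts scaled to a common total, after TMM scaling of library sizes. Ppp1r1b (DARPP-32), a defining MSN gene, was present at 228 to 1052 CPM in the 12 libraries. Slc17a7, the vesicular glutamate transporter of cortical neurons, ranged between 34.8 and 621 CPM, so the level of cortical transcripts differed widely among libraries. In the mean of 15 cortical neuron markers (log2 CPM), the ranges were 3.87 to 4.34 in cGAS-KO; HD, 3.09 to 3.54 in HD, 3.54 to 5.57 in cGAS-KO and 3.12 to 5.02 in WT. WT replicate 1 was low on that measure and cGAS-KO replicate 3 was high, and cGAS-KO replicate 3 also had 11.5% mitochondrial counts, against 5.30% to 9.03% in the other libraries. Xist counts exceeded those of the Y-linked Ddx3y in 2 libraries of cGAS-KO; HD, 2 of HD, 1 of cGAS-KO and 1 of WT, so the sexes were not balanced between knock-in and other mice. Htt averaged 135 ± 8.19 CPM in cGAS-KO; HD, 139 ± 7.48 in HD, 170 ± 13.2 in cGAS-KO and 173 ± 5.27 in WT (SD, n = 3 each). Cgas was low everywhere, at 1.03 ± 0.203 CPM in cGAS-KO; HD, 1.15 ± 0.0963 in HD, 0.777 ± 0.177 in cGAS-KO and 1.41 ± 0.129 in WT, and its difference between cGAS-KO and WT did not pass the test (log2 change -0.86 ± 0.24, SE, adjusted p = 0.919). In cGAS-KO; HD against HD it was -0.16 ± 0.23 (adjusted p = 0.856), with overlapping libraries. The labels do not state which part of the gene the knockout removes, so this gene-level count does not check the cGAS labels.

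In mice with the knock-in allele 5 of the 9 factors were lower when the effect was averaged over both cGAS genotypes: Rxrg, Bcl11b, Foxp1, Rarb and Meis2. Changes are log2 ratios with standard errors from edgeR's quasi-likelihood fit, and a gene was called at a Benjamini-Hochberg adjusted p under 0.05 over all genes tested. The 5 factors fell by between 0.61 and 1.11 on the log2 scale, whereas 7.63% of all genes tested were called lower in this comparison. The other 4 factors, Six3, Zfp503, Foxp2 and Ebf1, did not pass. The median log2 change of the 9 factors was -0.61, against 0.01 over all genes tested.

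**Figure D1:**
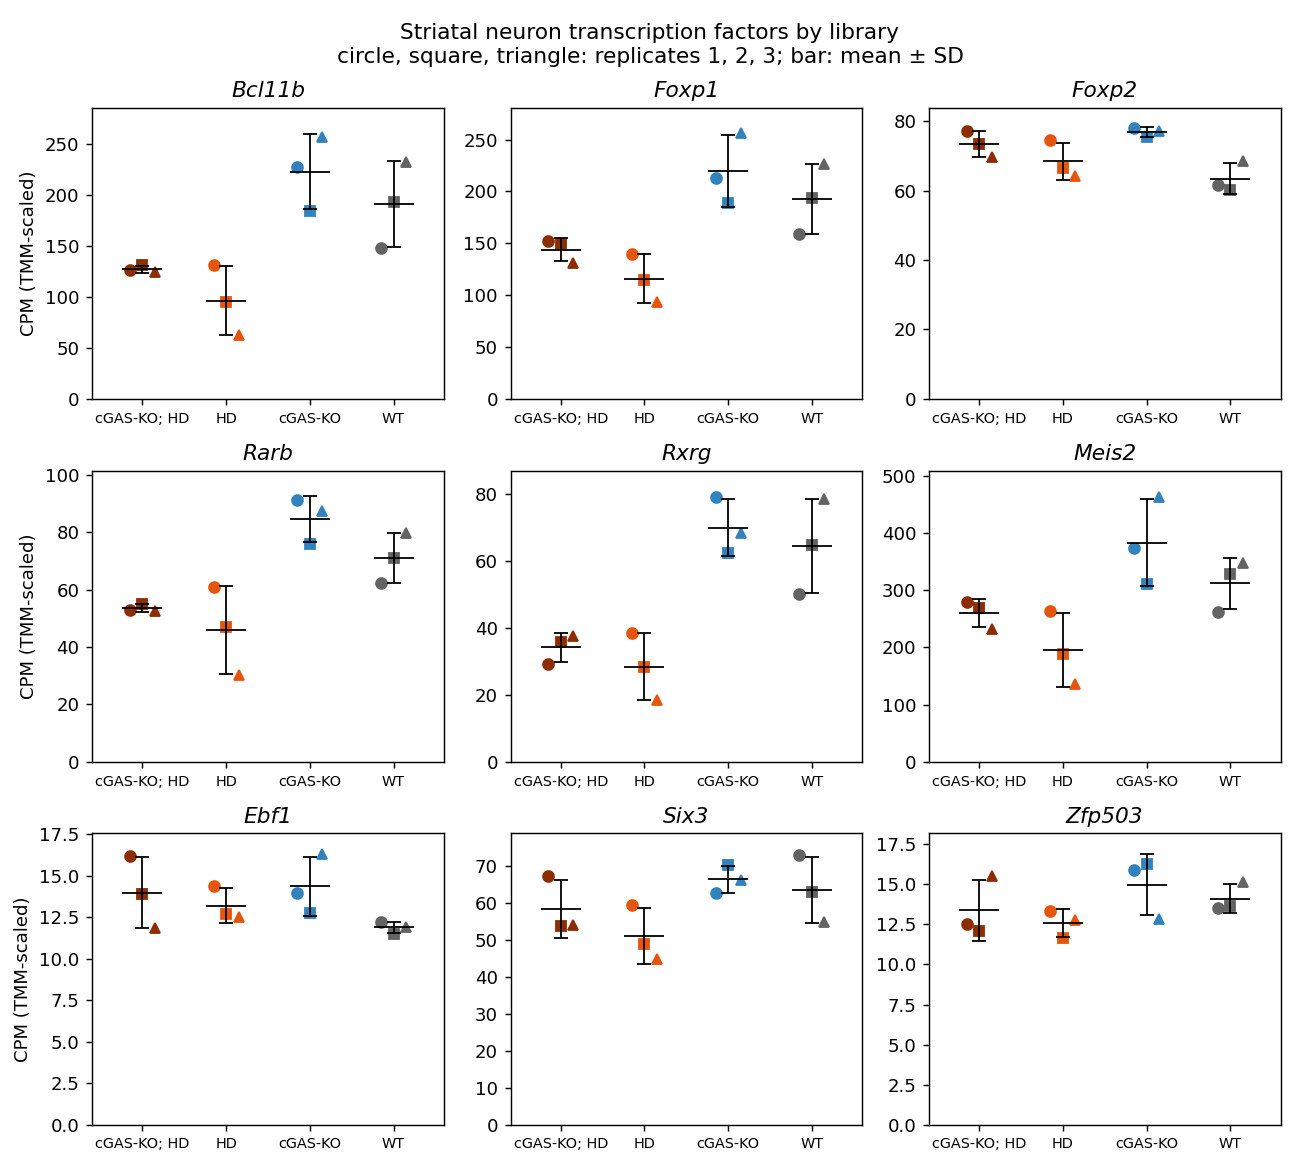
Level of each of the 9 factors in CPM (linear axis from 0) in the 3 libraries of each group, with the mean ± SD as black bars. In Bcl11b, Foxp1, Rarb and Rxrg every library of cGAS-KO; HD and HD lies below every library of cGAS-KO and WT, while Foxp2 and Ebf1 show no such separation.

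The retinoid receptors come first because they can form 1 receptor pair and because Rxrg had the largest averaged decrease of the 9. Rxrg (ENSMUSG00000015843, retinoid X receptor gamma) lies at chr1:167598384-167639623 on the plus strand, and Rarb (ENSMUSG00000017491, retinoic acid receptor beta) at chr14:16430839-16819156 on the minus strand (GRCm38, GENCODE M21). The promoter of Rarb is a textbook target of retinoic acid, which raises its own receptor through a direct repeat of receptor half-sites. The RefSeq promoter windows of both genes (GRCm38.p6, 250 bases before to 50 after the start) are printed below, at chr14:16575427-16575726 on the minus strand for Rarb, and at chr1:167598112-167598411 and chr1:167618015-167618314 on the plus strand for the upstream and downstream start of Rxrg. Capitals mark the matches found.
Rarb: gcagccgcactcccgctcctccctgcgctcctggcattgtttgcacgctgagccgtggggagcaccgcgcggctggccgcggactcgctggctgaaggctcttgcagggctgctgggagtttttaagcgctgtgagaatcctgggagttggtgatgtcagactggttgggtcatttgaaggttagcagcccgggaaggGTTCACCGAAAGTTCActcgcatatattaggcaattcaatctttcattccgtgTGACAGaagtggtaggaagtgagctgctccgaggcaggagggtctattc
Rxrg, upstream start: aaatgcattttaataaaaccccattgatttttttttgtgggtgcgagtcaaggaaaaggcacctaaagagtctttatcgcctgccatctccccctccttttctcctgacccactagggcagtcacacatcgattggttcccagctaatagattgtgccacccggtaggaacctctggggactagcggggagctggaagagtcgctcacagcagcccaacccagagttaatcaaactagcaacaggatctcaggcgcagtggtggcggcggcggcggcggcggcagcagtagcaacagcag
Rxrg, downstream start: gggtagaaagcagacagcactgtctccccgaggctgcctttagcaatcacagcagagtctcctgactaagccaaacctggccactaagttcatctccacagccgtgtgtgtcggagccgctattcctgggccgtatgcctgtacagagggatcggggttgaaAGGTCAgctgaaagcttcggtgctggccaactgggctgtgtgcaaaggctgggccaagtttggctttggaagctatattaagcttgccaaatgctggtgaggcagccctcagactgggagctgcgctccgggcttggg

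In the Rarb window, bases 199 to 214 matched GNTCANNNNNNGNTCA, a pair of retinoid receptor half-sites with a spacer of 5, and bases 252 to 257 matched TGACAG, the core read by Meis proteins. The direct repeat stood in 0.861% of 32851 RefSeq promoter windows of the same length, and in 1 of the 12 windows that were matched to 8 of the 9 factors. The downstream Rxrg window held the single half-site AGGTCA at bases 163 to 168, which 16.3% of all windows hold, and the upstream window held none of the motifs. TGACAG also stood in a window of Foxp1 and in that of Six3, and in 19.2% of all windows. The forkhead motif TGTTTAC, the EBF motif TCCCNNGGGA and the Bcl11 motif TGACCA stood in 0 of the 12 windows, against 3.65%, 0.904% and 13.6% of all. All motifs were searched on both strands, and AGGTCA shares letters with the repeat and with the reverse complement of TGACCA. A match describes letters only and is not evidence of binding.

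Rxrg had 29.2, 35.9 and 37.6 CPM in cGAS-KO; HD and 38.6, 28.4 and 18.5 CPM in HD, against 79.2, 62.6 and 68.5 CPM in cGAS-KO and 50.3, 64.8 and 78.6 CPM in WT (replicates 1 to 3). No library with the knock-in allele reached the lowest library without it. The averaged knock-in change was -1.11 ± 0.17 (SE, adjusted p = 0.00148, edgeR). It was the only factor called in both single comparisons, at -1.03 ± 0.24 (adjusted p = 0.0338) in cGAS-KO; HD against cGAS-KO and -1.18 ± 0.24 (adjusted p = 0.0187) in HD against WT.

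Rarb had 52.9, 55.1 and 52.4 CPM in cGAS-KO; HD and 60.7, 47.1 and 30.2 CPM in HD, against 91.0, 75.7 and 87.2 CPM in cGAS-KO and 62.3, 70.8 and 79.6 CPM in WT. Again the 6 knock-in libraries lay below the other 6, although HD replicate 1 came close to WT replicate 1. The averaged change was -0.64 ± 0.14 (SE, adjusted p = 0.00926, edgeR), and neither single comparison passed, with -0.66 ± 0.19 (adjusted p = 0.0831) in cGAS-KO; HD against cGAS-KO and -0.62 ± 0.19 (adjusted p = 0.0987) in HD against WT. Rarb shares 1793 exon bases with Top2b, a topoisomerase gene on the opposite strand whose counts came to 219% of those of Rarb. No label or header states whether strand was used in counting, so it is not known whether the reads of both genes were told apart in that stretch. Top2b itself had an averaged knock-in change of 0.00 ± 0.07 (adjusted p = 0.995, edgeR).

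The log2 ratio of Rarb to Rxrg was 0.65 ± 0.19 in cGAS-KO; HD and 0.70 ± 0.04 in HD, against 0.27 ± 0.07 in cGAS-KO and 0.15 ± 0.15 in WT (SD, n = 3 each). Knock-in mice were thus higher by 0.46, so that the Rxrg counts fell further than the Rarb counts (two-sided exact permutation within cGAS genotype, p = 0.005, the smallest that 400 arrangements can give, adjusted p = 0.0075 over 3 ratios). Any Top2b reads counted for Rarb would enter this ratio, and their part was not tested.

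Bcl11b and Foxp1 mark both MSN classes. Bcl11b (Ctip2, ENSMUSG00000048251, chr12:107910403-108003602, minus strand) encodes a zinc finger factor without which MSNs fail to mature. It had 126, 131 and 125 CPM in cGAS-KO; HD and 131, 95.5 and 62.9 CPM in HD, against 227, 184 and 258 CPM in cGAS-KO and 149, 193 and 232 CPM in WT. The knock-in libraries were all below the others, and HD replicate 3 stood at the bottom. Its averaged knock-in change was -0.90 ± 0.17 (SE, adjusted p = 0.00519, edgeR). The change was -0.81 ± 0.23 (adjusted p = 0.0884) in cGAS-KO; HD against cGAS-KO and -0.99 ± 0.24 (adjusted p = 0.0423) in HD against WT.

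Foxp1 (ENSMUSG00000030067, chr6:98925338-99522721, minus strand) encodes a forkhead repressor. It had 152, 149 and 131 CPM in cGAS-KO; HD and 140, 115 and 93.0 CPM in HD, against 213, 188 and 257 CPM in cGAS-KO and 159, 193 and 226 CPM in WT. The 6 knock-in libraries were again the 6 lowest. The averaged change was -0.67 ± 0.11 (SE, adjusted p = 0.00246, edgeR), made of -0.61 ± 0.16 (adjusted p = 0.0581) in cGAS-KO; HD against cGAS-KO and -0.74 ± 0.16 (adjusted p = 0.026) in HD against WT.

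Its relative Foxp2 (ENSMUSG00000029563, chr6:14901349-15441977, plus strand), a forkhead factor known in humans for its role in speech, did not pass the test. Foxp2 had 77.2, 73.4 and 69.6 CPM in cGAS-KO; HD and 74.5, 66.6 and 64.2 CPM in HD, against 78.0, 75.3 and 77.2 CPM in cGAS-KO and 61.7, 60.1 and 68.5 CPM in WT. The libraries of knock-in and other mice overlapped, and the averaged change was 0.02 ± 0.05 (95% interval -0.09 to 0.14, adjusted p = 0.843, edgeR). The log2 ratio of Foxp2 to Foxp1 was -0.97 ± 0.05 in cGAS-KO; HD and -0.74 ± 0.19 in HD, against -1.50 ± 0.21 in cGAS-KO and -1.59 ± 0.19 in WT (SD, n = 3 each). Knock-in mice were higher by 0.69, and this difference between the 2 forkhead genes passed its test (two-sided exact permutation, p = 0.005, adjusted p = 0.0075 over 3 ratios).

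Meis2 (ENSMUSG00000027210, chr2:115863064-116065839, minus strand) encodes a TALE homeodomain factor. It had 280, 268 and 232 CPM in cGAS-KO; HD and 265, 188 and 135 CPM in HD, against 375, 311 and 464 CPM in cGAS-KO and 261, 328 and 347 CPM in WT. The libraries of cGAS-KO; HD lay below those of cGAS-KO, whereas HD and WT overlapped, HD replicate 1 being above WT replicate 1. The averaged change was -0.61 ± 0.15 (SE, adjusted p = 0.0209, edgeR), with -0.56 ± 0.22 (adjusted p = 0.195) in cGAS-KO; HD against cGAS-KO and -0.67 ± 0.22 (adjusted p = 0.114) in HD against WT. The averaged call was lost without WT replicate 2 (adjusted p = 0.0535), WT replicate 3 (adjusted p = 0.0568) or cGAS-KO replicate 3 (adjusted p = 0.0659).

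The 2 factors tied to a single output pathway did not pass. Six3 (ENSMUSG00000038805, chr17:85613608-85629302, plus strand), a homeodomain factor of the indirect pathway, had 67.4, 53.7 and 54.0 CPM in cGAS-KO; HD and 59.6, 48.9 and 44.9 CPM in HD, against 62.8, 70.3 and 66.4 CPM in cGAS-KO and 73.0, 63.0 and 55.0 CPM in WT. The groups overlapped, and the averaged change was -0.25 ± 0.09 (95% interval -0.45 to -0.06, adjusted p = 0.0853, edgeR). It passed without HD replicate 1 (adjusted p = 0.0298) and without cGAS-KO; HD replicate 1 (adjusted p = 0.048). Six3 shares 106 exon bases with Six3os1, a noncoding gene on the opposite strand with 40% of its counts, and it is likewise not known whether reads there were told apart. Six3os1 had an averaged change of 0.20 ± 0.15 (adjusted p = 0.426, edgeR).

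Ebf1 (ENSMUSG00000057098, chr11:44617317-45008091, plus strand), a helix-loop-helix factor of the direct pathway, had 16.1, 13.9 and 11.9 CPM in cGAS-KO; HD and 14.4, 12.7 and 12.5 CPM in HD, against 14.0, 12.8 and 16.3 CPM in cGAS-KO and 12.2, 11.5 and 11.9 CPM in WT. The 3 HD libraries lay just above the 3 WT libraries, whereas cGAS-KO; HD and cGAS-KO overlapped. The averaged change was 0.06 ± 0.09 (95% interval -0.13 to 0.25, adjusted p = 0.737, edgeR). Whole-tissue counts do not show which cells made the Ebf1 RNA. Neither this value nor the ratio that follows can therefore be assigned to direct-pathway neurons. The log2 ratio of Ebf1 to Six3 was higher in knock-in mice by 0.31 (two-sided exact permutation, p = 0.03, adjusted p = 0.03 over 3 ratios), with 0.15 in cGAS-KO; HD against cGAS-KO and 0.47 in HD against WT. That call was lost when HD replicate 2, HD replicate 3, cGAS-KO replicate 2 or cGAS-KO; HD replicate 2 was left out, where the ratio differed by 0.25 to 0.31 and the adjusted p was 0.05 or 0.06.

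Zfp503 (Nolz1, ENSMUSG00000039081, chr14:21983959-21989601, minus strand), a zinc finger factor of the developing striatum, had 12.5, 12.1 and 15.5 CPM in cGAS-KO; HD and 13.3, 11.7 and 12.8 CPM in HD, against 15.9, 16.3 and 12.8 CPM in cGAS-KO and 13.5, 13.6 and 15.2 CPM in WT. HD lay below WT by a narrow gap, and the other groups overlapped. The averaged change was -0.16 ± 0.09 (95% interval -0.35 to 0.02, adjusted p = 0.249, edgeR).

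**Figure D2:**
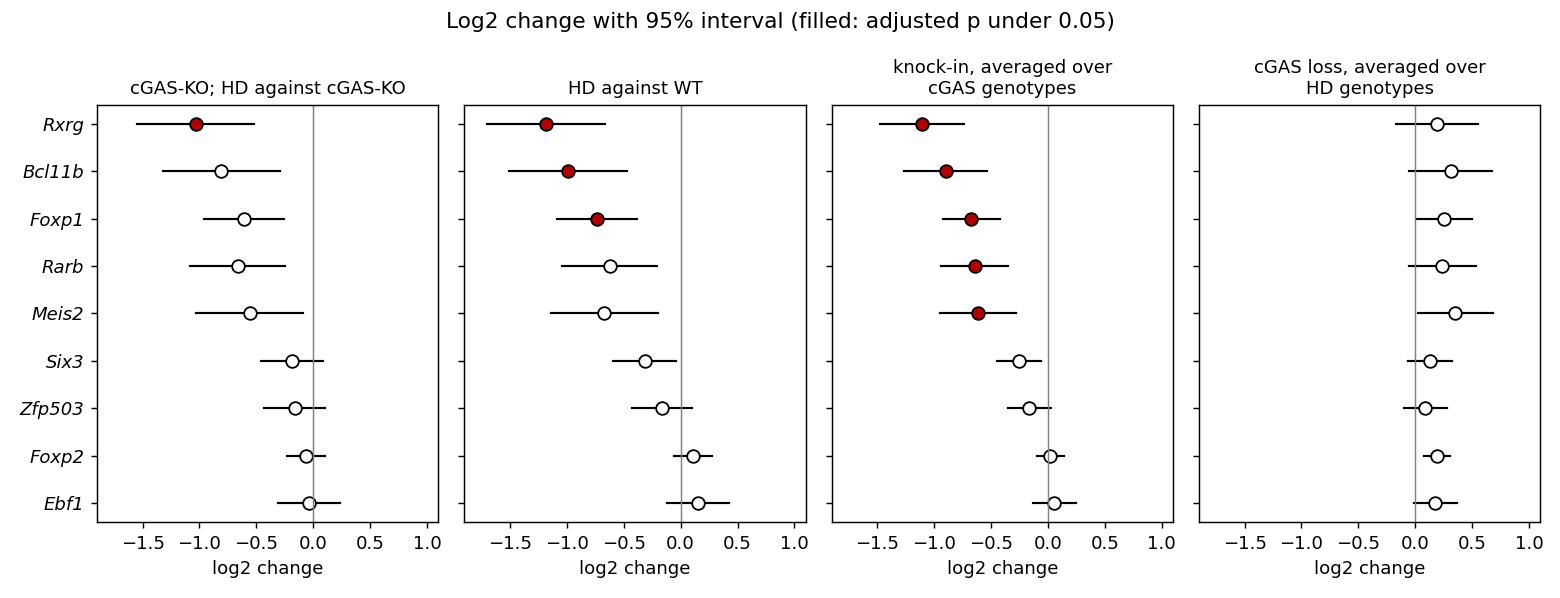
Log2 change of each factor with its 95% interval in 4 comparisons (panels), with filled points for an adjusted p under 0.05. Rxrg, Bcl11b, Foxp1, Rarb and Meis2 lie left of 0 in all knock-in panels and are filled in the averaged one, and no point is filled for cGAS loss.

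Within the single comparisons fewer factors passed. In cGAS-KO; HD against cGAS-KO, 1 of 9 factors was called lower (Rxrg), against a background of 2.52% of all genes tested, and 5 of 9 had no overlap between libraries in the lower direction, against 10.7% of all genes. In HD against WT, 3 of 9 were called lower (Rxrg, Foxp1 and Bcl11b), against 2.67% of all genes, and 5 of 9 lay lower without overlap, against 13.1%, while Ebf1 alone lay higher without overlap, against 14.6%. Over 6 against 6 libraries, Bcl11b, Foxp1, Rarb and Rxrg separated without overlap, or 4 of 9 factors against 4.11% of all genes. The median change of the 9 was -0.56 in cGAS-KO; HD against cGAS-KO and -0.62 in HD against WT. The count of 3 fell to 0 without WT replicate 2, WT replicate 3 or HD replicate 2 and to 1 without HD replicate 3, and was 5 without HD replicate 1. Rxrg lost its call in cGAS-KO; HD against cGAS-KO when any 1 of the 6 libraries of these groups was left out (adjusted p = 0.0511 to 0.146), and without cGAS-KO replicate 2 the 1 factor called was Foxp1 (adjusted p = 0.0429).

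Within HD and within WT, the 5 factors that fell had the same highest and lowest library. In detail, HD replicate 1 was the highest and HD replicate 3 the lowest HD library in 5 of 5, and WT replicate 3 was the highest and WT replicate 1 the lowest WT library in 5 of 5. HD replicate 3 was the lowest of its group for 8 of all 9 factors, whereas Six3 had the opposite order in WT. In cGAS-KO; HD the highest library was replicate 1 for 2, replicate 2 for 2 and replicate 3 for 1 of the 5, and in cGAS-KO it was replicate 1 for 2 and replicate 3 for 3. The mean of 30 MSN effector genes had the same order, at 6.76, 6.45 and 6.01 log2 CPM in HD replicates 1 to 3 and 7.32, 7.60 and 7.77 in WT replicates 1 to 3. The 3 libraries of cGAS-KO; HD were close to each other on that measure, at 6.57, 6.62 and 6.62, and those of cGAS-KO were at 7.88, 7.62 and 7.78. The mean of 12 pan-neuronal markers lay between 8.61 and 8.77 log2 CPM in 11 libraries and at 9.05 in cGAS-KO replicate 3.

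**Figure D3:**
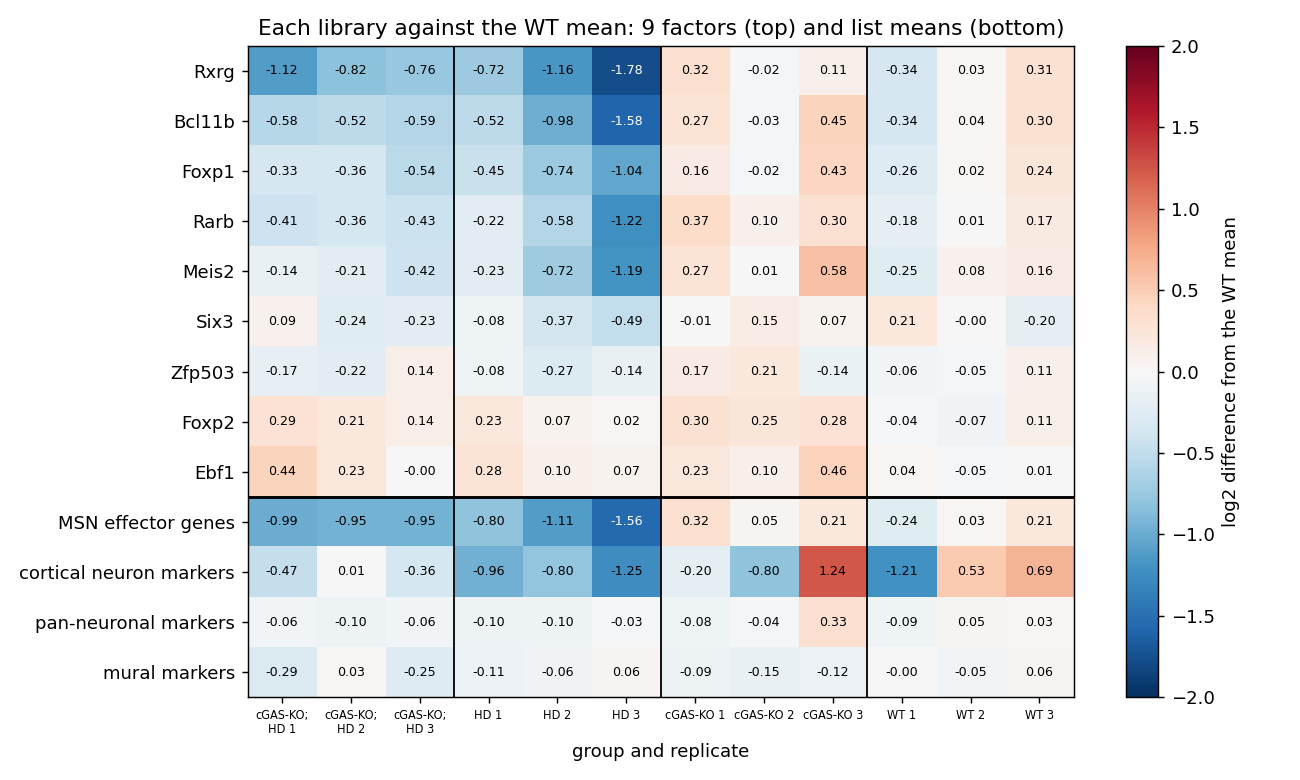
Heat map of each library's log2 difference from the WT mean for the 9 factors (top rows) and for the mean of 4 marker lists (bottom rows), with the value in each cell. Rxrg differs by between -1.12 and -0.76 in cGAS-KO; HD and between -1.78 and -0.72 in HD, and the cortical marker row varies within WT between -1.21 and 0.69.

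Bcl11b, Foxp1 and Meis2 are also made by some cortical neurons, and whole-tissue counts do not show which cells made the RNA of any of the 9 factors, Foxp2 included. The cortical marker means given above overlapped between knock-in and other libraries. All 15 cortical markers passed the filter on low counts, and 1 was called lower in the averaged comparison (Lamp5, -0.83 ± 0.22, adjusted p = 0.0329, edgeR), as for 7.63% of all genes, with a list median of -1.16, and 0 of 15 were called in either single comparison. There the list median was -0.61 in cGAS-KO; HD against cGAS-KO and -1.70 in HD against WT. With the cortical marker mean of each library as a covariate, the averaged changes were -0.97 for Rxrg (adjusted p = 0.00827), -0.70 for Bcl11b (0.0186), -0.51 for Foxp1 (0.00223) and -0.54 for Rarb (0.0427), all still called. Meis2 was no longer called, at -0.43 (adjusted p = 0.0819), and Six3 was, at -0.32 (adjusted p = 0.0424). Foxp2 stayed uncalled, at 0.04 (adjusted p = 0.744). In that fit 0 of 9 factors passed in HD against WT, where Foxp1 had an adjusted p of 0.0501, and 2 of 9, Foxp1 and Rxrg, passed in cGAS-KO; HD against cGAS-KO. With the Xist class of each library as a covariate, added after the libraries were seen, the same 5 of 9 factors were called in the averaged comparison.

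Per kilobase of merged exons, the mean levels in HD were 16.3 ± 5.39 CPM for Meis2, 12.4 ± 4.37 for Rxrg and 11.9 ± 4.21 for Bcl11b, and the lowest was that of Ebf1, at 1.35 ± 0.107 (SD, n = 3). In WT the mean levels were 28.1 ± 6.15 CPM for Rxrg, 25.9 ± 3.74 for Meis2 and 23.6 ± 5.17 for Bcl11b (SD, n = 3), which did not differ beyond their spread. Foxp1, Rarb and Six3 followed at 14.0 ± 2.44, 13.5 ± 1.65 and 11.7 ± 1.65, also within their spread of each other. Foxp2 (3.88 ± 0.273) and Zfp503 (3.34 ± 0.217) were lower, and Ebf1 (1.22 ± 0.0361) was the lowest of the 9.

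With loss of cGAS no factor passed the test. In cGAS-KO; HD against HD, 0 of 9 factors were called and 0 had an unadjusted p under 0.05, against 0.00469% of all genes called (1 gene). All 9 values were positive, between 0.08 for Ebf1 and 0.41 for Meis2, with adjusted p between 0.757 and 0.864 (edgeR), while 48.9% of all genes tested were negative. Of the 30 MSN effector genes 3 were negative, and the cortical marker median was 0.63. Without HD replicate 3 the value of Rarb was -0.01, without cGAS-KO; HD replicate 1 that of Ebf1 was -0.03, and without cGAS-KO; HD replicate 3 that of Zfp503 was -0.03. Over the alternatives run, Bcl11b ranged between 0.17 and 0.69 and Rxrg between 0.03 and 0.55. Bcl11b had 0.40 ± 0.23 (95% interval -0.11 to 0.92) and Rxrg 0.26 ± 0.23 (95% interval -0.25 to 0.78). The libraries of both groups overlapped for all 9, while 8.33% of all genes lay lower and 8.76% higher without overlap. HD libraries also serve in HD against WT, so a low or high HD library moves both comparisons.

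In cGAS-KO against WT, 0 of 9 factors were called, as for 0% of all genes. The smallest p were those of Foxp2, at 0.28 ± 0.08 (SE, adjusted p = 0.919, edgeR), and Ebf1, at 0.27 ± 0.13 (adjusted p = 0.919). Both had every cGAS-KO library above every WT library, as for 4.25% of all genes. All 9 values were positive, between 0.06 and 0.30, while 49.6% of all genes tested were negative. The 9 values come from the same libraries, here as in cGAS-KO; HD against HD, so their signs are not independent. Other neuronal lists leaned the same way, with negative values in 1 of 30 MSN effector genes, 3 of 15 cortical markers and 2 of 12 pan-neuronal markers. Of the astrocyte markers 6 of 10 were negative, and of the microglia markers 9 of 10. Over the alternatives run, Bcl11b, Foxp1, Rxrg and Six3 reached negative values, the lowest being -0.05, -0.06, -0.04 and -0.03. The other factors stayed positive. Averaged over both HD genotypes, cGAS loss gave 0.09 to 0.35 for the 9 factors, with 0 of 9 called (0% of all genes). The smallest p were those of Foxp2, Meis2 and Foxp1. DESeq2's Wald test also called 0 of 9 in each of these comparisons.

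Whether the knock-in effect differed with cGAS was tested as an interaction. The 9 values lay between -0.19 for Ebf1 and 0.18 for Bcl11b, with 0 of 9 called (0.00469% of all genes, 1 gene), all adjusted p at 1 (edgeR) and 0 at an unadjusted p under 0.05. DESeq2's Wald test called 0 of 9. For Rxrg the difference was 0.15 (95% interval -0.58 to 0.87) and for Bcl11b 0.18 (95% interval -0.54 to 0.91), so the data leave room for differences of those sizes.

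Of 20 partner and paralog factors of the 9, 1 was called lower and 1 higher in the averaged knock-in comparison, with a list median of -0.02. Over all genes tested 7.63% were called lower and 5.59% higher, so these counts were near the shares of all genes. Pbx2, a TALE homeodomain partner of Meis proteins, fell by 0.18 ± 0.05 (SE, adjusted p = 0.0274, edgeR), to 48.7 ± 1.98 CPM in cGAS-KO; HD and 47.1 ± 2.28 in HD, against 54.9 ± 2.79 in cGAS-KO and 53.3 ± 1.02 in WT (SD, n = 3 each). Six4, a relative of Six3, rose by 0.65 ± 0.17 (adjusted p = 0.0266) but was rare, at 2.31 ± 0.257 CPM in cGAS-KO; HD and 2.76 ± 0.722 in HD, against 1.50 ± 0.443 in cGAS-KO and 1.73 ± 0.137 in WT. The broadly expressed retinoid X receptors had 0.01 ± 0.06 for Rxra (adjusted p = 0.929) and -0.12 ± 0.12 for Rxrb (adjusted p = 0.6), and Rara had -0.08 ± 0.10 (adjusted p = 0.687). Rarg, which was not called, had 11.8 ± 1.67 CPM in cGAS-KO; HD and 11.6 ± 1.32 in HD, against 13.0 ± 0.701 in cGAS-KO and 12.8 ± 1.46 in WT (SD, n = 3 each). These receptors were named after their values were seen.

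Of 26 genes of the retinoic acid pathway 24 were tested, and 2 were called, both lower, with a median of -0.02, a share close to the 7.63% of all genes called lower. Rbp4, the carrier of retinol in blood, fell by 0.79 ± 0.16 (SE, adjusted p = 0.00664, edgeR), and Dhrs3, an enzyme that turns retinaldehyde back to retinol, fell by 0.44 ± 0.13 (adjusted p = 0.0449). Rbp4 had 4.77 ± 0.744 CPM in cGAS-KO; HD and 4.46 ± 1.05 in HD, against 8.37 ± 2.32 in cGAS-KO and 7.63 ± 1.35 in WT (SD, n = 3 each).

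Other factors of the striatal lineage went both ways. Of 30 tested, 6 were lower and 6 higher in the averaged comparison, with a median of -0.10. Over all genes tested 7.63% were lower and 5.59% higher. The 6 lower were Pou3f1, a POU factor (-0.87 ± 0.09, SE, adjusted p = 6.63e-05, edgeR), Dlx6, a homeobox factor of GABAergic neurons (-0.57 ± 0.11), Mn1 (-0.72 ± 0.14), Klf16, which binds the Drd2 promoter (-0.60 ± 0.13), the activity-regulated Egr3 (-0.94 ± 0.24) and Sp9, a zinc finger factor of indirect-pathway neurons (-0.29 ± 0.09). Pou3f1 had 17.5, 20.2 and 19.7 CPM in cGAS-KO; HD and 22.4, 19.7 and 16.0 CPM in HD, against 34.8, 37.3 and 29.2 CPM in cGAS-KO and 33.6, 35.7 and 40.2 CPM in WT. No knock-in library reached the lowest of the others. The 6 higher were Zfhx4 (0.44 ± 0.08, adjusted p = 0.00276), Gsx1, a homeobox factor of striatal progenitors (1.15 ± 0.27), Etv1 (0.38 ± 0.09), Sox4 (0.19 ± 0.05), Ikzf2 (0.32 ± 0.10) and the imprinted Peg3 (0.23 ± 0.07). Gsx1 was near the bottom of the measured range, at 0.998 ± 0.0809 CPM in cGAS-KO; HD and 0.772 ± 0.0907 in HD, against 0.425 ± 0.264 in cGAS-KO and 0.365 ± 0.134 in WT.

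The effector genes by which MSNs signal had a lower median than the 9 factors. Of 30 MSN effector genes 28 were called lower and 0 higher in the averaged comparison, against 7.63% and 5.59% of all genes tested. Their median was -1.19, against -0.61 for the factors. Both lists were chosen with earlier results of these data known, so the contrast describes the listed genes only. The 6 with the smallest p were Ryr1, a calcium release channel (-2.23 ± 0.09, SE), Scn4b, a sodium channel subunit (-2.42 ± 0.14), Rasgrp2 (-1.14 ± 0.08), Adora2a (-1.99 ± 0.14), Pde10a, a phosphodiesterase (-1.59 ± 0.13), and Pde1b (-1.15 ± 0.11). In the single comparisons 24 of 30 were called lower in cGAS-KO; HD against cGAS-KO (2.52% of all genes) and 23 of 30 in HD against WT (2.67% of all genes).

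**Figure D4:**
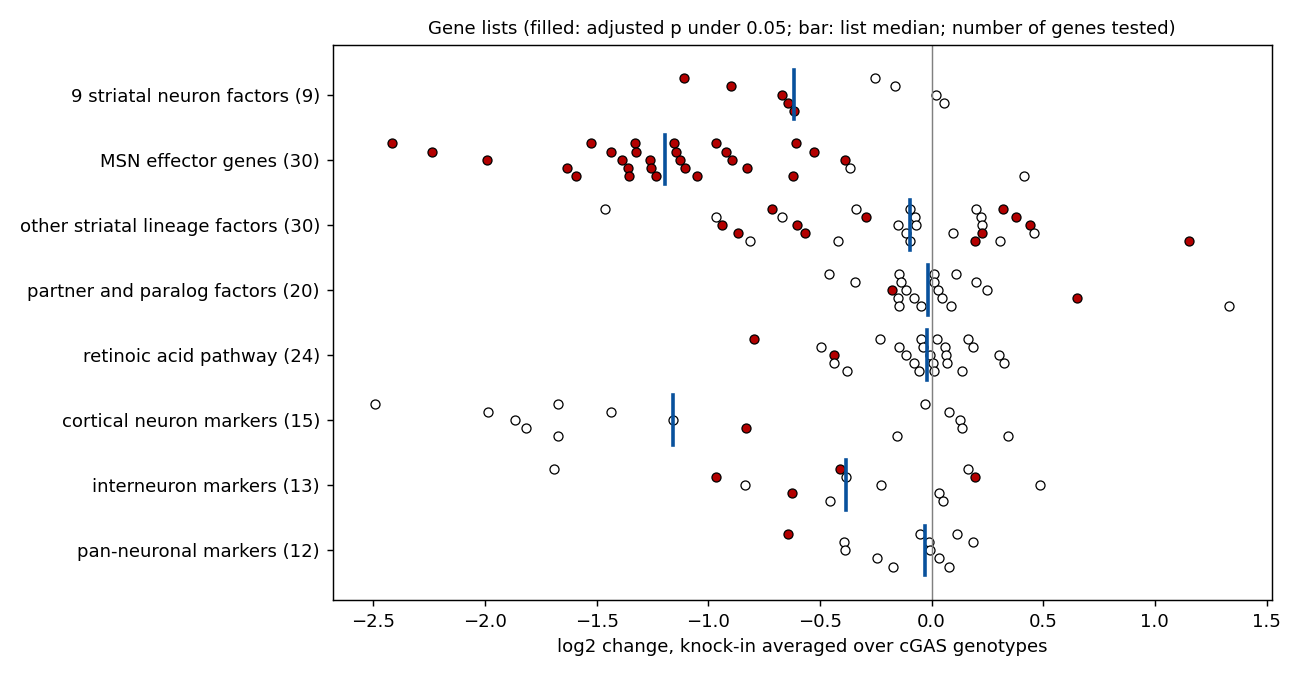
Averaged knock-in log2 change of each tested gene (points, filled for an adjusted p under 0.05) by list, with the list median as a blue bar. The 9 factors have a median of -0.61, the MSN effector genes of -1.19 and the cortical neuron markers of -1.16, the last with 1 filled point. The partner factors and the retinoic acid pathway have medians of -0.02 each, with 2 filled points each. Their genes range from -0.46 to 1.33 and from -0.79 to 0.33. Rara, Rarg, Rxra and Rxrb are in both of these lists.

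Markers of other cells are given for the same comparison, in which 7.63% of all genes tested were called lower and 5.59% higher. Of 13 interneuron markers 3 were lower (Nos1, Pthlh and Sst) and 1 higher (Sox6), and of 12 pan-neuronal markers 1 was lower (Rbfox3, -0.64 ± 0.12). None of 14 mural markers was called. Of 10 astrocyte markers 1 was lower (Slc1a2) and 1 higher (Aqp4), and of 10 microglia markers 1 was higher (Tmem119). The part of these markers in the change of the factors was not tested.

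The 3 genes whose profile over the 12 libraries lay closest to that of Rxrg, by root mean square difference of centred log2 CPM among 21308 genes, were Hpca (hippocalcin, a neuronal calcium sensor) at 0.0815, Rin1 (a Ras effector) at 0.0899 and Krt9 (a keratin) at 0.0917. Hpca had 298, 350 and 350 CPM in cGAS-KO; HD and 363, 288 and 209 CPM in HD, against 770, 624 and 751 CPM in cGAS-KO and 537, 689 and 803 CPM in WT. The order of libraries within HD and within WT was the same as in Rxrg, which the choice of Hpca by closest profile favours.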

How the data were processed

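Directional libraries were made from poly(A) RNA of 3 mice per group, per the labels. Each library has 1 deposited file of raw read counts per Ensembl gene, made by the authors. The sources used here do not give the aligner, build, annotation or use of strand in counting. Of the IDs, 55141 (99.4%) took a symbol from GENCODE M21 (GRCm38).

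Genes were kept by filterByExpr (minimum count 10, minimum total 15) and TMM-scaled. A robust quasi-likelihood model (edgeR) gave every group its own mean over 12 libraries (8 residual degrees of freedom, common dispersion 0.0326), with 7 comparisons, each adjusted by Benjamini-Hochberg over 21309 genes and called under 0.05. Ratios of 3 pairs of factors were tested by exact permutation. All tests were two-sided. Depth was 59195327 to 72765623 counts per library.

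The 9 factors and all lists (partners, striatal lineage, retinoic acid, MSN effectors, and cortical, mural, interneuron, pan-neuronal, astrocyte and microglia markers) were chosen with earlier results of these data known. The result of 1 further marker list is not reported here. Named genes were the 9 factors, up to 6 called genes of each list each way by p, and the 3 genes nearest in profile to a factor called in both single knock-in comparisons. Same-numbered libraries did not deviate together, so the numbers were not used as pairs. Alternatives were DESeq2 size factors, other filters, DESeq2's Wald test, limma-voom, compared groups alone, a replicate block, covariates, other thresholds and leaving out libraries. The software was edgeR 4.0.16, DESeq2 1.42.0 and limma 3.58.1 under R 4.3.3.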

Additional observations from a re-analysis of the deposited data

How the results depend on the processing

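Each of the 9 factors had at least 672 counts in every library. In the averaged knock-in comparison Bcl11b, Foxp1, Rarb and Rxrg were called in 22 of 22 alternatives run at the 0.05 threshold, Meis2 in 16, Six3 in 5 and Foxp2, Ebf1 and Zfp503 in 0, and the count of called factors (5) was 4 to 6 throughout. The single comparisons moved more. The count of factors called in cGAS-KO; HD against cGAS-KO (1) was 0 without the low-count filter, with the replicate block, under 0.01 and on leaving out cGAS-KO replicate 3 together with WT replicate 1. It was 2 with at least 1 CPM in 3 libraries or the cortical covariate, 4 with DESeq2's Wald test, with the compared groups alone, under 0.10 and without WT replicate 1 and HD replicate 3 together (the last chosen after seeing the data), and 0 to 1 with each library left out in turn. The count in HD against WT (3) was 1 without the filter, 1 with the replicate block, 5 with DESeq2's Wald test, 0 with the compared groups alone, with the cortical covariate and under 0.01, and 0 to 5 with each library left out. The cause was not tested. The Ebf1 to Six3 ratio (0.31) was 0.25 to 0.36 with a library left out. Of 18 same-number pairs of libraries 2 had deviations correlated above 0.1 (range -0.23 to 0.20), and 2 libraries correlated best with their own number, so the block rests on numbers alone. No called value changed sign, and 40 of the recomputed uncalled values did, 23 of them for the interaction.

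Over all genes, calls in cGAS-KO; HD against cGAS-KO (843) were 1661 with DESeq2's Wald test, 460 with the groups alone, 1476 with the cortical covariate, 280 and 1469 under 0.01 and 0.10, 1805 without cGAS-KO replicate 3 and WT replicate 1, and 321 to 1089 with a library left out. In HD against WT (873) they were 1782 with the Wald test, 507 with the block, 257 and 1543 under 0.01 and 0.10, 3589 without both libraries, and 247 to 1532. For the averaged knock-in effect (2816) they were 1215 under 0.01, 4595 without both, and 1784 to 3596. For cGAS loss and the interaction (0 or 1) they were at most 10 with the Wald test, and 38 for cGAS-KO against WT and 105 for the interaction without both.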
